A study of Mus musculus with 15 samples.

Results

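Basophil genes and the genes of the high-affinity IgE receptor, FcεRI, were examined in RNA-Seq libraries of mouse conjunctiva. The set was defined by symbol and holds 8 of the 55487 genes in the deposited count table: Mcpt8, Prss34, Cd200r3, Fcer1a, Ms4a2, Il3ra, Gata2 and Itga2b. All 8 were found, and 7 reached the minimum for testing (10 counts in 5 or more libraries), which Prss34 did not. The libraries came from female wild-type BALB/c mice (spelled BALC/c in the labels) aged 9 to 12 weeks, which were sensitized on the skin with OVA (ovalbumin) together with MC903, a vitamin D analog that inflames skin, at 2.5 nmol per day for 7 days. Their eyes were then challenged from day 18 to day 24. There were 5 libraries per group: mice challenged with PBS (PBS group), mice challenged with OVA and given isotype control antibody (isotype group), and mice challenged with OVA and given an antibody that blocks the IL-4 receptor α chain (anti-IL-4Rα group), both antibodies at 25 mg/kg. All 3 groups were sensitized with MC903 and OVA. The labels name no antibody for the PBS group, so OVA challenge and antibody injection cannot be told apart in comparisons with it.

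Basophils are rare granulocytes that enter tissue in allergic inflammation. They carry IgE on FcεRI, and crosslinking of that IgE by antigen releases histamine, leukotrienes, IL-4 and proteases. FcεRI is built from an α chain that binds IgE, a β chain that amplifies the signal, and a γ chain that is shared with other Fc receptors. IL-3 expands basophils, and GATA2 acts in the development of basophils and mast cells. Of the 8 genes, Mcpt8 and Prss34 encode granule proteases that mark mouse basophils, while Fcer1a and Ms4a2 encode the α and β chains, which mast cells also make. Cd200r3 encodes an activating surface receptor of basophils and mast cells. Il3ra (the IL-3 receptor α chain), Gata2 and Itga2b (integrin αIIb, best known from platelets) are used more widely.

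Start-site sequence is shown for the 4 genes with the largest differences between the isotype and PBS groups. The windows are the bases before the first annotated start, 5′ to 3′ along each gene's own strand, from RefSeq on GRCm38.p6. Capitals mark the GATA hexamer, AGATAA or its reverse complement TTATCT. The Mcpt8 sequence lies at chr14:56085274-56085447 on the minus strand, that of Cd200r3 at chr16:44943428-44943677 on the plus strand, that of Fcer1a at chr1:173227230-173227479 on the minus strand and that of Ms4a2 at chr19:11623720-11623969 on the minus strand.
Mcpt8: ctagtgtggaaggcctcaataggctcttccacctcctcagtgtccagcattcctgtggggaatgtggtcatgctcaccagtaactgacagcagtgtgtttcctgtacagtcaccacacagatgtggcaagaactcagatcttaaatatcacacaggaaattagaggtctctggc
Cd200r3: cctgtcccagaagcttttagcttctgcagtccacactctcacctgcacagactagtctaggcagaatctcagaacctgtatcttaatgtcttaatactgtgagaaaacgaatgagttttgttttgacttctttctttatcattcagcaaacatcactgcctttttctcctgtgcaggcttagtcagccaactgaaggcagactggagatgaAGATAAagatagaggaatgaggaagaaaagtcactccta
Fcer1a: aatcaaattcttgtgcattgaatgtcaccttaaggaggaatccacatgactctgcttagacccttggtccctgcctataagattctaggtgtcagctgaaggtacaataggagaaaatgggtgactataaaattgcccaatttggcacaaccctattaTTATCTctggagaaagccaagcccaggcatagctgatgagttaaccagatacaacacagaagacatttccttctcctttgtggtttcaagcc
Ms4a2: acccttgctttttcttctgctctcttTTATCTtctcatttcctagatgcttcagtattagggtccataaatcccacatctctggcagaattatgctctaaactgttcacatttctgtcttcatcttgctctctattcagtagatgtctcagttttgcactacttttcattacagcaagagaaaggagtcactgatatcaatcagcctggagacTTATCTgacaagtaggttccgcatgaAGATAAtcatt

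All 8 genes had a RefSeq promoter window of 250 bases before to 50 after the start, and Gata2 had a pair of windows, which gave 9 in all. The hexamer was found in the windows of 4 of the 8 genes, beside 11.2% of all 32851 promoter windows of that length. Ms4a2 held 3 copies, whose first bases lay at positions -224, -37 and -11 from the start. Fcer1a held 1 at -92, Cd200r3 held 1 at -39 and Prss34 held 1 at -31. No copy was found for Mcpt8, Il3ra, Gata2 or Itga2b. The Runx hexamer, TGTGGT or ACCACA, was found in Mcpt8, at -188 and -139, and in Fcer1a, at -14, beside 16.8% of all windows. For Mcpt8 these positions count from the RefSeq start at 56085197. The sequence printed above ends at 56085274, before another annotated start at 56085273, so positions cannot be counted from its end. The Stat palindrome TTCNNNNGAA was in none of the 9 windows, beside 6.95% of all. These matches are descriptions of letters in a window, and no binding was measured.

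Library totals ranged from 48622246 to 87745024 counts. Levels are given in CPM (counts per 1000000 of a library's counts after TMM scaling), and as FPKM (the same per kilobase of exon) where genes are compared with each other. As a check of the tissue, 7 conjunctival epithelium markers summed to between 9595 and 16790 CPM per library. Other tissue was present in unequal amounts: 6 lacrimal gland markers summed to 211 to 3324 CPM in the PBS group, 180 to 2383 in the isotype group and 318 to 9757 in the anti-IL-4Rα group, and 5 skeletal muscle markers to between 3338 and 9633 CPM over the 15 libraries. The lacrimal imbalance went with treatment, since the middle library of each group had 439 CPM (PBS), 652 CPM (isotype) and 6988 CPM (anti-IL-4Rα). Fewer cells of a type and less RNA per cell cannot be told apart in bulk tissue.

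The order of the genes differed between groups. Per length, Gata2 was highest in the PBS group at 1.98 ± 0.238 FPKM (mean ± SD, n = 5), followed by Il3ra at 1.70 ± 0.157 and Itga2b at 1.37 ± 0.127, neighbours whose libraries overlapped. Ms4a2 (0.597 ± 0.170 FPKM) and Fcer1a (0.297 ± 0.121 FPKM) overlapped each other and lay below these. Cd200r3 (0.0867 ± 0.0311 FPKM) and Mcpt8 (0.0376 ± 0.0291 FPKM) were lower still, and Prss34 was lowest at 0.00514 ± 0.00712 FPKM. With OVA challenge and isotype antibody, Mcpt8 (2.63 ± 2.18 FPKM), Gata2 (2.62 ± 0.686 FPKM) and Il3ra (2.57 ± 0.586 FPKM) stood together at the top within their spread. Itga2b (1.90 ± 0.0964 FPKM), Fcer1a (1.74 ± 0.801 FPKM) and Ms4a2 (1.51 ± 0.653 FPKM) followed and also overlapped, while Cd200r3 reached 0.368 ± 0.218 FPKM and Prss34 0.0355 ± 0.0203. Under anti-IL-4Rα, Il3ra (2.17 ± 0.294 FPKM), Gata2 (2.16 ± 0.405 FPKM) and Itga2b (1.91 ± 0.194 FPKM) led. Ms4a2 (1.06 ± 0.361 FPKM), Fcer1a (0.939 ± 0.291 FPKM) and Mcpt8 (0.776 ± 0.327 FPKM) overlapped below them, above Cd200r3 (0.202 ± 0.0584 FPKM) and Prss34 (0.00478 ± 0.0107 FPKM).

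**Figure D1:**
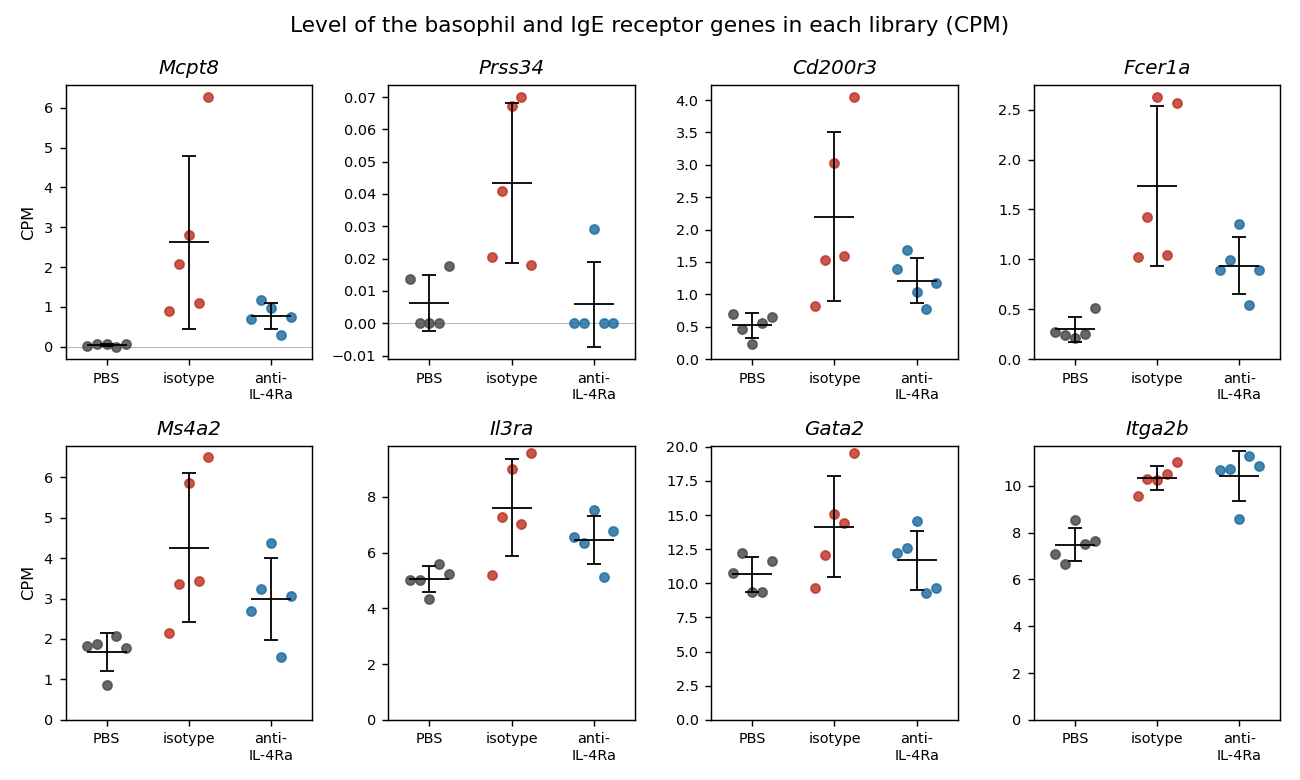
Level of each of the 8 genes in CPM (linear axes, 1 panel per gene) in the 5 PBS, 5 isotype and 5 anti-IL-4Rα libraries, replicates 1 to 5 from left to right. Points are libraries and black bars the mean ± SD; Mcpt8 was between 0 and 0.0679 CPM in the PBS group and between 0.899 and 6.26 CPM in the isotype group.

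To see how ocular OVA challenge related to these genes, the isotype group was compared with the PBS group (edgeR's quasi-likelihood test, adjusted over all 19006 genes tested). Of the 7 genes tested, 6 rose and none fell, with Gata2 the exception, and for 5 the libraries of the groups were separate. Over all genes tested, 9.53% were called higher and 7.49% lower, and all 5 isotype libraries exceeded all 5 PBS libraries for 6.85% and lay below them for 5.43%. With upper quartile factors in place of TMM, 1479 genes were called higher and 1844 lower, beside 1812 and 1423 with TMM, and the same number of the 7 genes was called. The median log2 fold change was 1.34 over the 7 genes and -0.01 over all genes tested. The 7 are not a fair sample of all genes, because they were chosen with earlier results of these data known and because a filter on counts admits a gene that is high in 1 group only.

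Of the granule proteases, Mcpt8 (ENSMUSG00000022157, chromosome 14, 56082166 to 56085273, minus strand; build GRCm38 for this and the other genes) was at 0.0138, 0.0679, 0.0531, 0 and 0.0527 CPM in PBS replicates 1 to 5, which is 0 to 4 counts per library. Isotype replicates 1 to 5 had 0.899, 2.08, 2.81, 1.08 and 6.26 CPM (44 to 347 counts). The groups were far apart, and isotype replicate 5 was highest. The log2 fold change was 6.07 (standard error 0.71, adjusted p = 0.000409), or 66.9-fold, with higher values in 5 of 5 libraries; the size rests on the few PBS counts and was 1.63 in a linear model on log2(FPKM + 1). Prss34 (ENSMUSG00000056399, chromosome 17, 25298394 to 25300165, plus strand) had 1 count in each of 2 PBS libraries and 0 in the other 3, and 1, 4, 4, 4 and 1 counts in isotype replicates 1 to 5. Detection of Prss34 was therefore limited by depth: the limit that a count of 0 allows, 3 counts, corresponds to 0.0307 to 0.0741 CPM in these libraries and covers counting error only, and no fold change is given. The mean CPM of Prss34 was higher in the isotype group (exact permutation test, two-sided p = 0.00794, not adjusted), where counts of 1 separated the lowest isotype from the highest PBS library only through library size.

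The genes of the α and β chains of FcεRI both rose. Fcer1a (ENSMUSG00000005339, chromosome 1, 173221284 to 173227214, minus strand) was at 0.275, 0.237, 0.212, 0.248 and 0.510 CPM in PBS replicates 1 to 5 and at 1.02, 1.42, 2.63, 1.05 and 2.56 CPM in isotype replicates 1 to 5. No PBS library reached the isotype range. Its log2 fold change was 2.54 (standard error 0.35, adjusted p = 0.000951). Ms4a2 (ENSMUSG00000024680, chromosome 19, 11615523 to 11623719, minus strand) had 1.83, 1.87, 0.849, 2.08 and 1.77 CPM in the PBS libraries and 2.15, 3.37, 5.86, 3.44 and 6.50 CPM in the isotype libraries. The groups were separate, but isotype replicate 1 lay just above PBS replicate 4. The log2 fold change of Ms4a2 was 1.34 (standard error 0.33, adjusted p = 0.0159). The difference in response between the chains was tested within libraries. The log2 ratio of Fcer1a to Ms4a2 rose by 1.09, from -2.38 ± 0.550 to -1.29 ± 0.245 (n = 5 each, two-sided exact permutation p = 0.00794, the lowest value possible with 5 against 5, and 0.0190 adjusted over 12 ratio tests), so the α chain transcript increased more than the β chain transcript.

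The γ chain gene Fcer1g, which many myeloid cells use, averaged 6.88 ± 0.633 CPM in the PBS and 16.0 ± 5.46 CPM in the isotype libraries and rose by 1.22 on the log2 scale (standard error 0.20, adjusted p = 0.00215). Fcer1a rose more than Fcer1g: the log2 ratio of Fcer1a to Fcer1g was higher by 1.21 in the isotype group (exact permutation test, two-sided p = 0.00794, 0.0190 adjusted). Per length, the PBS group held 7.87 ± 0.724 FPKM of Fcer1g beside 0.297 ± 0.121 FPKM of Fcer1a, and the isotype group 18.3 ± 6.25 beside 1.74 ± 0.801 FPKM.

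**Figure D2:**
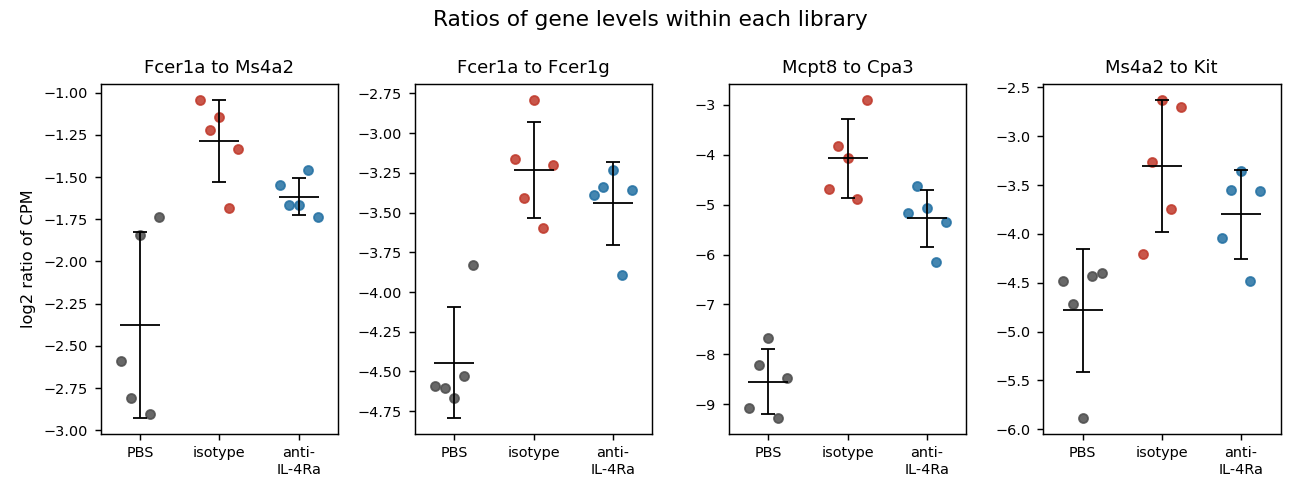
Log2 ratio of CPM values (log2 CPM with a prior count of 2) between 2 genes of the same library, for 4 ratios, in the 5 libraries of each group, with the mean ± SD in black. The Fcer1a to Ms4a2 ratio averaged -2.38 in the PBS, -1.29 in the isotype and -1.62 in the anti-IL-4Rα libraries.

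Among the surface receptors and the regulator, Cd200r3 (ENSMUSG00000036172, chromosome 16, 44943678 to 44981380, plus strand) was at 0.701, 0.458, 0.230, 0.554 and 0.65 CPM in PBS replicates 1 to 5 and at 0.817, 1.52, 3.03, 1.59 and 4.04 CPM in isotype replicates 1 to 5. The groups did not overlap, with isotype replicate 1 close to the PBS range. Its log2 fold change was 2.08 (standard error 0.40, adjusted p = 0.00578). Il3ra (ENSMUSG00000068758, chromosome 14, 14346275 to 14356011, plus strand) was at 4.32 to 5.60 CPM (median 5.03) in the PBS group and at 5.19, 7.29, 9.01, 7.02 and 9.57 CPM in the isotype group. Isotype replicate 1 lay inside the PBS range and the other 4 above it, and the log2 fold change was 0.60 (standard error 0.15, adjusted p = 0.0161). Itga2b (ENSMUSG00000034664, chromosome 11, 102453297 to 102470122, minus strand) had 7.09, 6.67, 8.53, 7.53 and 7.63 CPM in the PBS libraries and 9.56, 10.3, 10.3, 10.5 and 11.01 CPM in the isotype libraries. Its groups were separate and tight, with a log2 fold change of 0.46 (standard error 0.08, adjusted p = 0.00336). Gata2 (ENSMUSG00000015053, chromosome 6, 88193891 to 88207032, plus strand) was at 10.7, 12.2, 9.36, 9.39 and 11.6 CPM in the PBS libraries and at 9.64, 12.1, 15.1, 14.4 and 19.6 CPM in the isotype libraries. The Gata2 groups overlapped, and its log2 fold change of 0.41 (standard error 0.17, adjusted p = 0.110) did not pass; without isotype replicate 1 it was 0.52 and passed (adjusted p = 0.0303), and without isotype replicate 5 it was 0.26 (adjusted p = 0.271).

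**Figure D3:**
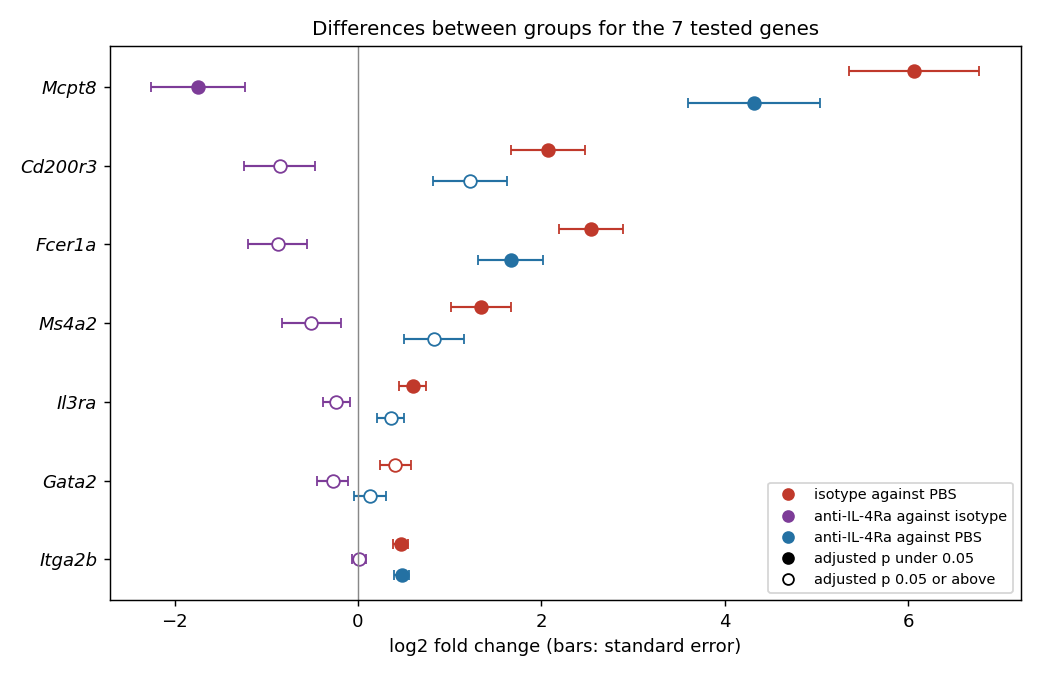
Log2 fold change (horizontal axis) with its standard error for the 7 tested genes in the 3 comparisons, from edgeR's quasi-likelihood fit. Filled points have an adjusted p under 0.05; Mcpt8 had the largest value in each comparison, 6.07, -1.74 and 4.32, and the comparisons share groups.

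Next, blockade was compared with isotype control to see which of these genes differed under receptor blockade during OVA challenge. Mcpt8 was the single gene of the 7 that fell, and none rose. In all genes tested, 6.73% were called higher and 8.13% lower, and the libraries of the groups were separate for 2.35% (higher) and 4.96% (lower); for none of the 7 were they separate. The median log2 fold change was -0.51 over the 7 genes and 0.01 over all genes tested. The same isotype libraries serve in both comparisons, so a fall here is not independent of the rise above. Lacrimal tissue also differed between these groups: with a lacrimal score as a covariate, 542 genes were called, beside 2826 without it. For genes outside the set, calls are given without this covariate.

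Mcpt8 was at 0.682, 1.16, 0.976, 0.296 and 0.756 CPM in anti-IL-4Rα replicates 1 to 5 (12 to 77 counts). These values were lower on average than the isotype values, and replicates 2 and 3 reached into the isotype range. The log2 fold change was -1.74 (standard error 0.51, adjusted p = 0.0384). The call was lost without isotype replicate 2 (adjusted p = 0.0623), 3 (0.0789) or 5 (0.0991, where the log2 fold change was -1.14) and without anti-IL-4Rα replicate 1 (0.0834), 2 (0.0535), 4 (0.0846) or 5 (0.0731). It was also lost with the lacrimal score of each library as a covariate, where the log2 fold change was -1.52 (adjusted p = 0.183). Prss34 had 2 counts in anti-IL-4Rα replicate 3 and 0 in the other 4 libraries, which allows up to 3 counts in each of those. Its mean CPM was lower than in the isotype group (exact permutation test, two-sided p = 0.0238, not adjusted), and the groups overlapped.

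Fcer1a stood at 0.895, 0.995, 1.35, 0.543 and 0.898 CPM in the anti-IL-4Rα libraries. Replicate 3 lay inside the isotype range, and the other 4 were lower than every isotype library. The log2 fold change of -0.88 (standard error 0.32, adjusted p = 0.0796) did not pass over all genes; it passed in DESeq2 (adjusted p = 0.0468) and when any of 3 libraries was left out, isotype replicate 1 (0.0419) or 4 (0.0486) or replicate 3 of the anti-IL-4Rα group (0.0425), while the highest adjusted p with 1 library left out was 0.193. Cd200r3, at 1.39, 1.69, 1.03, 0.766 and 1.18 CPM, overlapped the isotype libraries, with a log2 fold change of -0.86 (standard error 0.38, adjusted p = 0.138) that passed without isotype replicate 1 (adjusted p = 0.0440) and was -0.52 without isotype replicate 5 (adjusted p = 0.343). Ms4a2, at 2.68, 3.23, 4.37, 1.56 and 3.07 CPM, had a log2 fold change of -0.51 (standard error 0.32, adjusted p = 0.281). The log2 ratio of Fcer1a to Ms4a2 differed from the isotype group by -0.33, which did not pass after adjustment (exact permutation test, two-sided p = 0.0476, adjusted 0.0571). The γ chain gene Fcer1g fell, from 16.0 ± 5.46 to 10.2 ± 1.68 CPM (log2 fold change -0.65, standard error 0.19, adjusted p = 0.0404).

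The genes that are used more widely stayed closer together. Il3ra ranged from 5.11 to 7.52 CPM (median 6.54) under anti-IL-4Rα, with a log2 fold change of -0.24 (standard error 0.15, adjusted p = 0.267) against the isotype group. Gata2 ranged from 9.31 to 14.6 CPM (median 12.2), with a log2 fold change of -0.28 (standard error 0.17, adjusted p = 0.267). Itga2b was at 10.7, 10.7, 8.58, 11.3 and 10.8 CPM, all but replicate 3 within or above the isotype range, with a log2 fold change of 0.01 (standard error 0.08, adjusted p = 0.932).

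The anti-IL-4Rα group was also set against the PBS group, which asks what part of these genes' levels under OVA challenge stood above PBS when the receptor was blocked. Of the 7 genes, 3 were higher and none lower, and for 4 every anti-IL-4Rα library lay above every PBS library. Among all genes tested, 2.28% were called higher and 1.44% lower (434 and 273 genes; 354 and 336 with upper quartile factors), and the libraries were separate for 2.98% (higher) and 3.12% (lower). The median log2 fold change was 0.83 over the 7 genes and -0.0043 over all genes tested. This comparison shares its libraries with the preceding ones. Mcpt8 was higher by a log2 fold change of 4.32 (standard error 0.72, adjusted p = 0.0147), or 20.02-fold, a call that was lost in the linear model on log2(FPKM + 1) (0.75, adjusted p = 0.131). The log2 value was 1.67 for Fcer1a (standard error 0.35, adjusted p = 0.0291) and 0.48 for Itga2b (standard error 0.08, adjusted p = 0.0148); none of these 3 genes overlapped between the groups. The Fcer1a call was lost without PBS replicate 1 (adjusted p = 0.0770), 2 (0.0786), 3 (0.0590) or 4 (0.0713), or without anti-IL-4Rα replicate 1 (0.0576), 2 (0.0520) or 5 (0.0567). With the lacrimal score as a covariate, only Mcpt8 passed; the adjusted p was 0.0726 for Fcer1a and 0.0647 for Itga2b. Cd200r3 did not overlap either, yet its log2 fold change of 1.22 (standard error 0.40, adjusted p = 0.0930) did not pass; in DESeq2 it was 1.23 and passed (adjusted p = 0.0300). Ms4a2 (0.83 ± 0.33 as log2 fold change ± standard error, adjusted p = 0.149), Il3ra (0.36 ± 0.15, 0.162) and Gata2 (0.13 ± 0.17, 0.696) did not pass either. The log2 ratio of Fcer1a to Ms4a2 remained higher than in the PBS group, by 0.76 (exact permutation test, two-sided p = 0.0159, adjusted 0.0272). Without anti-IL-4Rα replicate 1, 2 or 3 the exact permutation p was 0.0556, and without replicate 4 it was 0.0635, so the call was lost in each case.

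The levels were also related to 4 leukocyte markers. All 4 (Ptprc, Itgb2, Coro1a and Laptm5) rose in the isotype group, and their summed level was 113 to 136 CPM in the PBS, 165 to 374 CPM in the isotype and 145 to 278 CPM in the anti-IL-4Rα libraries. Ptprc, which encodes CD45, rose by a log2 fold change of 1.05 (standard error 0.21, adjusted p = 0.00657). A leukocyte score, the mean log2 CPM of the 4 markers, was subtracted from each gene within a library, a step chosen after seeing the data. Relative to this score, Mcpt8 was higher in the isotype than in the PBS group by 4.06 on the log2 scale and Fcer1a by 1.44, in every library (exact permutation test, two-sided p = 0.00794 for each, adjusted 0.0278 over 21 tests). Cd200r3 was higher by 0.97 (adjusted p = 0.0476, exact permutation test). For Ms4a2 the difference was 0.35 (adjusted p = 0.302, exact permutation test) and did not pass. Il3ra and Gata2 took the opposite direction, with differences of -0.36 and -0.55 (adjusted p = 0.0278 for each, exact permutation test), and every isotype library lay below every PBS library; Itga2b differed by -0.46 (adjusted p = 0.0667, exact permutation test). Between the anti-IL-4Rα and isotype groups no gene passed on this scale (smallest adjusted p = 0.0556, exact permutation test, for Mcpt8 with a difference of -1.12).

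**Figure D4:**
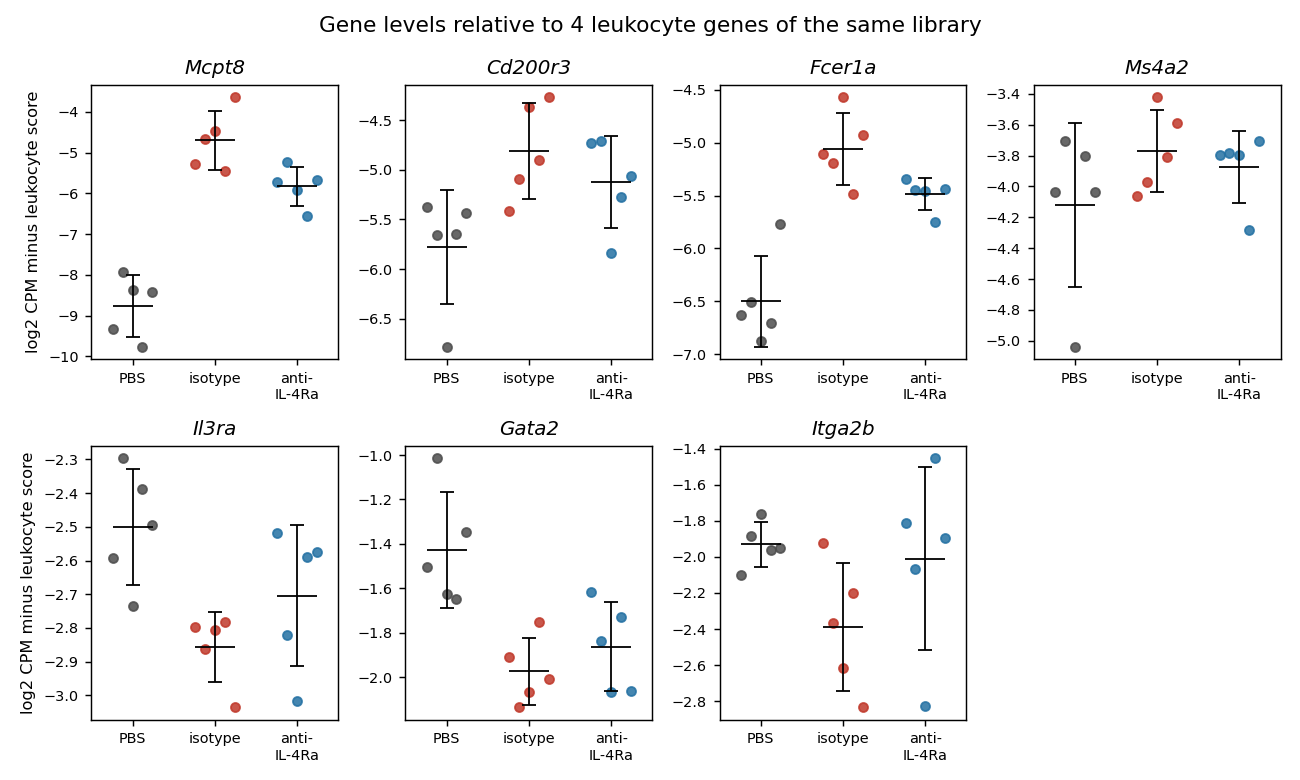
Log2 CPM of each tested gene minus the leukocyte score of the same library, in the 5 libraries of each group, with the mean ± SD in black. Mcpt8 and Fcer1a were higher in all isotype than in all PBS libraries, by means of 4.06 and 1.44, while Il3ra and Gata2 were lower in all, with mean differences of -0.36 and -0.55.

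Mast cells share most of these genes, and their markers moved in part. Of 10 mast cell markers, 4 rose in the isotype group and none fell, namely the protease genes Tpsab1, Tpsb2 and Cma1 and the serotonin enzyme gene Tph1. Of all genes tested, 9.53% were called higher and 7.49% lower in that comparison. Tpsab1 went from 5.19 to 24.7 CPM on average (log2 fold change 2.25, standard error 0.28, adjusted p = 0.000567). Kit, the stem cell factor receptor, which mast cells carry but not they alone, did not rise with these proteases. It was at 45.5 ± 5.75 CPM in the PBS and 39.6 ± 5.48 CPM in the isotype group (log2 fold change -0.20, standard error 0.11, adjusted p = 0.22). Cpa3, a protease of mast cells and basophils, was at 25.2 ± 5.78 and 36.3 ± 10.5 CPM (log2 fold change 0.52, standard error 0.20, adjusted p = 0.0825). The summed level of the 10 markers was 148 to 204 CPM in the PBS, 169 to 311 CPM in the isotype and 164 to 217 CPM in the anti-IL-4Rα libraries. Both mucosal mast cell proteases rose. Mcpt1 went from 0.0212 to 3.81 CPM (log2 fold change 7.41, standard error 0.87, adjusted p = 0.000409) and fell under anti-IL-4Rα to 0.180 CPM (log2 fold change -4.33, standard error 0.67, adjusted p = 0.00292), and Mcpt2 was called in the same directions. Under anti-IL-4Rα, 1 of the 10 mast cell markers, Tpsab1, fell against the isotype group (log2 fold change -1.43, standard error 0.27, adjusted p = 0.00769). This count is close to the 8.13% of all genes tested that were called lower there. The part of mast cells in the levels of Fcer1a, Ms4a2, Cd200r3 and Gata2 was not tested.

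Ratios to mast cell genes gave the sizes within libraries. The log2 ratio of Mcpt8 to Cpa3 was higher in the isotype than in the PBS group by 4.47 and in the anti-IL-4Rα than in the PBS group by 3.27 (exact permutation test, two-sided p = 0.00794 and adjusted 0.0190 for each). Between the anti-IL-4Rα and isotype groups it differed by -1.20 (p = 0.0238, adjusted 0.0357, exact permutation test), a call that was lost without anti-IL-4Rα replicate 4 (difference -0.98, exact permutation p = 0.0556). The log2 ratio of Ms4a2 to Kit was higher by 1.48 in the isotype than in the PBS group (adjusted p = 0.0190, exact permutation test) and differed by -0.49 between the anti-IL-4Rα and isotype groups (adjusted p = 0.234, exact permutation test). Against the mean log2 CPM of all 10 mast cell markers, subtracted after seeing the data, Mcpt8, Fcer1a and Cd200r3 were higher in every isotype than in every PBS library, by 4.39, 1.77 and 1.29 (adjusted p = 0.0278 for each, exact permutation test). On that scale Mcpt8 differed by -1.14 between the anti-IL-4Rα and isotype groups, which did not pass (p = 0.0556, adjusted 0.130, exact permutation test). Between the isotype and PBS groups, Ms4a2 differed by 0.68 on that scale (adjusted p = 0.0625, exact permutation test). Il3ra differed between these 2 groups by -0.03 (adjusted p = 0.802, exact permutation test). Gata2 was lower in the isotype than in the PBS group, with a difference of -0.22 (adjusted p = 0.0476, exact permutation test).

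Other cells use single genes of the set. Beside the counts below, 9.53% of all genes tested were called higher and 7.49% lower in the isotype than in the PBS group. Under anti-IL-4Rα, 8.13% were called lower than in the isotype group. For platelets and megakaryocytes, which use Itga2b, 6 of 12 markers were too low to be tested, among them Gp9, which had at most 12 counts in any library, and Gp6, which had at most 5. Of the 6 tested, Pf4 (log2 fold change 0.64, adjusted p = 0.0312) and Itgb3 (0.64, adjusted p = 0.00660), the β chain that pairs with integrin αIIb, rose in the isotype group, and none fell. The summed platelet level was 147 to 202 CPM in the PBS, 169 to 205 CPM in the isotype and 135 to 194 CPM in the anti-IL-4Rα libraries, and Nbeal2, which other cells use too, gave most of it with 4464 to 12218 counts per library. Of 8 endothelial markers, which belong to cells that use Gata2, Pecam1 rose (log2 fold change 0.33, adjusted p = 0.0440) and none fell. This count is close to the share of all genes called higher, and the median log2 fold change of the 8 was -0.06. Their summed level was 168 to 229 CPM in the PBS, 164 to 221 CPM in the isotype and 168 to 207 CPM in the anti-IL-4Rα libraries. Of 5 plasmacytoid dendritic cell markers, a cell type that uses Il3ra, 3 rose in the isotype group, among them Klk1 (log2 fold change 3.21, adjusted p = 0.000418). Siglech (0.33, adjusted p = 0.244) and Tcf4 (0.01, adjusted p = 0.91) were not called. The sums were 68.5 to 77.0, 78.0 to 98.7 and 71.2 to 80.9 CPM in the same order of groups. Tcf4 gave most of these sums, with means of 56.0, 56.5 and 54.6 CPM. Of 9 eosinophil markers, 5 were tested and 4 rose, among them Ccr3, a chemokine receptor also found on basophils (log2 fold change 1.82, adjusted p = 0.00598). The sums were 7.91 to 12.9, 17.3 to 32.6 and 5.26 to 19.3 CPM. Ear2 gave a large part of these sums, with means of 6.71, 14.7 and 3.54 CPM. Under anti-IL-4Rα, Ear2 (log2 fold change -2.05, adjusted p = 0.000383) and Ear1 fell against the isotype group. Ccr3 (-0.19, adjusted p = 0.723), Siglecf (-0.13, adjusted p = 0.83) and Il5ra (-0.50, adjusted p = 0.39) were not called there. The defining granule genes were near 0, with at most 12 counts in any library for Prg2, 3 for Epx and 2 for Prg3. Whether these cells contributed to the levels of Itga2b, Gata2 and Il3ra was not tested.

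The partners of the set were then counted from lists by role. Over all genes tested, 9.53% were called higher and 7.49% lower in the isotype than in the PBS group. Against the isotype group, 6.73% were called higher and 8.13% lower under anti-IL-4Rα. The 4 leukocyte markers all rose in the isotype group, with a median log2 fold change of 0.97. The lists by role were not set against the leukocyte score. Their calls under anti-IL-4Rα come from the fit without the lacrimal score, and lacrimal tissue was unequal between these groups. Of 16 other genes listed for IgE and its receptor signaling, 9 rose in the isotype group and none fell (median log2 fold change 0.58). Those with the smallest adjusted p were the kinase gene Syk (1.02, adjusted p = 0.00173), Fcer1g, the exchange factor gene Vav1 (0.97, adjusted p = 0.00238) and the lipid phosphatase gene Inpp5d (1.08, adjusted p = 0.00246). The list also holds Fcer2a, the gene of another IgE receptor, which was not called (log2 fold change -0.52, adjusted p = 0.403, edgeR's quasi-likelihood test). Ighe, the constant gene of the IgE heavy chain, is in the list too and was named here after its values were seen. Ighe had 0 counts in every PBS library, 34 to 397 counts in the isotype and 1 to 134 counts in the anti-IL-4Rα libraries. The anti-IL-4Rα libraries had a median of 0.0472 CPM and a highest value of 2.02 CPM. Between the anti-IL-4Rα and isotype groups Ighe was not called (log2 fold change -2.80, adjusted p = 0.1295, edgeR's quasi-likelihood test). It was at least 63.8-fold higher in the isotype group (adjusted p = 0.0147), taking the mean of 3 counts per library for the PBS group, and the list's median is the same with this bound. Under anti-IL-4Rα, Fcer1g and Syk (log2 fold change -0.49, adjusted p = 0.0491) fell and none of the 16 rose.

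Receptors that act on basophils followed a like count. Of 16, 10 rose in the isotype group and none fell (median log2 fold change 0.78). Il1rl1, the IL-33 receptor, had the smallest adjusted p: it went from 3.83 ± 0.316 to 18.4 ± 8.17 CPM (log2 fold change 2.27, standard error 0.31, adjusted p = 0.000935) and fell under anti-IL-4Rα to 6.08 ± 0.815 CPM (log2 fold change -1.60, standard error 0.30, adjusted p = 0.00769). Csf2rb, the β chain that pairs with the product of Il3ra, rose from 20.4 ± 1.97 to 54.3 ± 19.1 CPM (log2 fold change 1.41, standard error 0.21, adjusted p = 0.00154) and fell to 30.1 ± 6.24 CPM (log2 fold change -0.85, standard error 0.21, adjusted p = 0.0210). Its close paralog Csf2rb2 was called alike, and reads may be split between the pair. In all, 4 of the 16 receptors fell under anti-IL-4Rα, the fourth being Il4ra, the target of the antibody (log2 fold change -1.06, adjusted p = 0.0119), and none rose. Against the PBS group 2 of the 16, Ccr3 and Ccr2, were higher under anti-IL-4Rα, beside 2.28% of all genes tested. Of 8 ligand genes, 7 were tested and 2 rose in the isotype group, Ccl2 (log2 fold change 1.46, adjusted p = 0.0218) and Ccl11 (0.50, adjusted p = 0.0400), and Ccl11 fell under anti-IL-4Rα (log2 fold change -1.07, adjusted p = 0.00221). Il3 itself had 0 counts in the PBS group and at most 5 in any library.

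Effector genes that basophils express rose in 8 of 11 cases in the isotype group, and none fell (median log2 fold change 1.30), and the 4 with the smallest adjusted p are named. Hdc, which makes histamine, went from 2.45 ± 0.424 to 13.3 ± 7.24 CPM (log2 fold change 2.44, standard error 0.34, adjusted p = 0.00102) and Il6 rose by 4.04 on the log2 scale (adjusted p = 0.00108). Ccl3 (2.46, adjusted p = 0.00387) and the leukotriene gene Alox5ap (1.06, adjusted p = 0.00494) also rose. Of the 11, Hdc (log2 fold change -1.58, standard error 0.33, adjusted p = 0.0118) and Il6 (-2.29, adjusted p = 0.0141) fell under anti-IL-4Rα and none rose. Of 10 transcription factor genes, Irf8 (log2 fold change 1.11, adjusted p = 0.00103), Gata1 (1.73, adjusted p = 0.0108) and Ikzf1 (0.70, adjusted p = 0.0357) rose in the isotype group, and Cebpa differed by -0.01 (adjusted p = 0.962). Under anti-IL-4Rα Runx1 fell (-0.30, adjusted p = 0.0174) and Lmo2 rose (0.66, adjusted p = 0.0193) against the isotype group. Irf8 and Lmo2 were higher under anti-IL-4Rα than in the PBS group, beside 2.28% of all genes tested.

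Within groups, libraries that were high in one gene of the set were mostly high in the others. Pearson's r was computed over the 15 libraries on log2 CPM with group means removed, with 100000 permutations within groups, for 49 relations; the libraries share their scaling and their tissue makeup. Of the 21 pairs of the 7 genes, 12 passed after adjustment, with a median r of 0.73 over the 21. Fewer pairs passed by Spearman's rho. Ms4a2 and Il3ra had the highest value (r = 0.938, permutation p = 3e-05, adjusted 0.00147; Spearman's rho 0.871, permutation p = 0.00091, adjusted 0.0235), and r was 0.948 without the 2 libraries farthest from the median. Fcer1a and Ms4a2, the pair of receptor chains, had r = 0.795 (permutation p = 0.00381, adjusted 0.0170; rho 0.686, permutation p = 0.0174, adjusted 0.0557; r = 0.844 without the 2 farthest). For Mcpt8 and Gata2, r was 0.755 (permutation p = 0.00652, adjusted 0.0241; rho 0.761, permutation p = 0.00486, adjusted 0.0340; r = 0.60 without the 2 farthest). Mcpt8 did not pass with Cd200r3 (r = 0.57, adjusted permutation p = 0.114), Ms4a2 (0.58, 0.0817) or Il3ra (0.648, 0.0676). Without the 2 farthest libraries these r were 0.341, 0.349 and 0.44. Itga2b stood apart: its r with the other 6 genes ran from -0.371 to 0.0336, and none of these passed.

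The same relations were computed with marker scores. The mast cell score correlated with 5 of the 7 genes after adjustment, most with Gata2 (r = 0.855, permutation p = 0.0004, adjusted 0.0098; rho 0.793, permutation p = 0.00184, adjusted 0.0258; r = 0.742 without the 2 farthest), and its r with Itga2b was -0.182. By Spearman's rho, only Ms4a2, Il3ra and Gata2 passed with the mast cell score. Gata2 was also the gene that correlated with the endothelial score (r = 0.695, permutation p = 0.00337, adjusted 0.0165; rho 0.689, permutation p = 0.00779, adjusted 0.0424; r = 0.595 without the 2 farthest). The eosinophil score correlated with 3 genes, most with Ms4a2 (r = 0.765, permutation p = 0.00123, adjusted 0.0115; rho 0.807, permutation p = 0.00096, adjusted 0.0235; r = 0.876 without the 2 farthest). By Spearman's rho, only Ms4a2 passed with the eosinophil score. No gene passed with the platelet score, whose r with Itga2b was 0.135 (permutation p = 0.534).

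**Figure D5:**
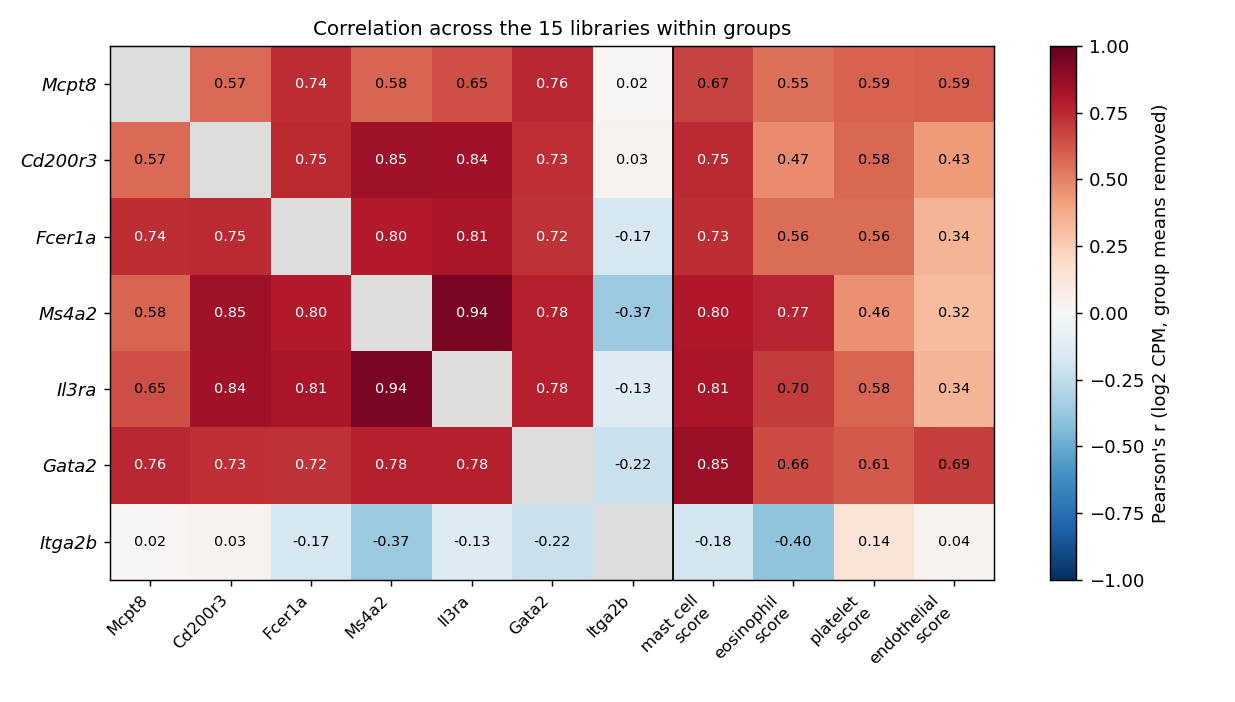
Pearson's r between genes, and between genes and 4 marker scores, across the 15 libraries after removal of group means; red is positive and blue negative. Mcpt8, Cd200r3, Fcer1a, Ms4a2, Il3ra and Gata2 form a positive block, with r up to 0.938, and Itga2b lies outside it. Within the block, Mcpt8 did not pass with Cd200r3, Ms4a2 or Il3ra after adjustment.

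Over the 15 libraries with group means kept, the tested genes most like each of the set were listed by Pearson's r of log2 CPM, as a description. Mcpt8 was most like Ccl9 (r = 0.968), C1qb (0.968) and Ms4a6b (0.961). Fcer1a was most like Gm21188 (r = 0.973), Ms4a7 (0.963) and Irf8 (0.956). Cd200r3 and Ms4a2 shared Cyp11a1 (r = 0.950 and 0.955) and Cd200r4 (0.942 and 0.967) among their first 3, with Cd200r1 (0.942) for Cd200r3. Ms4a2 and Il3ra were each in the other's first 3 (r = 0.970), and Il3ra was most like Nckap1l (0.973) and Tnfaip8l2 (0.972). Gata2 was most like Sh3tc1 (r = 0.935), Plekho2 (0.922) and Rab3il1 (0.915), and Itga2b most like Lrrc59 (0.924), Tmem104 (0.908) and Arfgap1 (0.906).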

How the data were processed

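RNA-Seq was performed by the authors on conjunctiva, 5 libraries for each of 3 groups. The methods mention 2 outliers without saying which samples they were, and all 15 libraries were kept here. According to the methods, polyA RNA was sequenced with a stranded kit and unique alignments of read pairs to mouse B38 were quantified with Ensembl genes in Omicsoft Array Studio; its use of strand and counting method are not given in the sources used here. The authors deposited estimated counts per gene, neither scaled nor pooled. Of these, 6222 to 8005 per library were not whole, and they were rounded. Columns that belong to no sample numbered 0.

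The 19006 genes with a minimum of 10 counts in 5 or more libraries were TMM-scaled and compared in edgeR 4.0.16 (R 4.3.3), quasi-likelihood test, 1 model with all 3 groups, two-sided, Benjamini-Hochberg adjustment over all genes tested, called at an adjusted p under 0.05. Standard errors are the fold change divided by the root of F. Single values were compared by exact permutation over 252 divisions (scipy 1.17.1), where 0.00794 is the smallest two-sided p. Log2 CPM used a prior count of 2. FPKM used exon lengths of GENCODE M21 (GRCm38), which is older than the authors' gene model; 55227 of 55487 identifiers matched. The depth of a library, 48622246 to 87745024 counts, sets its counting precision. The code was tested on simulated data. Labels give no cage or litter, so p-values measure the spread between these libraries. Genes overlapping the set (Mir6949, Gm48860 and Gm23563) had 0 counts.

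The genes of the set and the lists were chosen with earlier results of these data known. All 8 were described, and from each list up to 4 called genes with the smallest adjusted p, beside 13 genes that are always given. Alternatives were upper quartile factors, DESeq2 1.42.0, other filters, linear models in limma 3.58.1 on log2(FPKM + 1) and log2(CPM + 0.1), fits to 2 groups, a block for replicate number, a covariate for lacrimal genes, and leaving out each library. The subtraction of leukocyte or mast cell scores was chosen after seeing the data.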

Additional observations from a re-analysis of the deposited data

Results flagged for a closer look

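In 4 of 24 groups of 5 libraries (8 genes in 3 groups), 1 library stood apart from the other 4 by Dixon's gap test, and chance gives about 1 in 20. Prss34 was at 0.0291 CPM (2 counts) in anti-IL-4Rα replicate 3 and at 0 in the other 4 libraries, a difference at the level of single counts. Fcer1a was at 0.510 CPM in PBS replicate 5, above the other PBS libraries, whose highest was 0.275 CPM. Ms4a2 was at 0.849 CPM in PBS replicate 3, beside 1.77 CPM in the next lowest. Itga2b was at 8.58 CPM in anti-IL-4Rα replicate 3, beside 10.7 CPM in the next lowest.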

How the results depend on the processing

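In the comparison of isotype with PBS, the 6 genes called were called under all 9 alternative settings, and 6 to 7 were called when 1 library was left out. Between anti-IL-4Rα and isotype, where 1 gene was called, 0 were called without a filter, in the linear model on log2(FPKM + 1), with 2 groups only and with the lacrimal score as a covariate, DESeq2 called 2, and 0 to 3 were called when 1 library was left out. Between anti-IL-4Rα and PBS, where 3 were called, 1 was called in the linear model on log2(FPKM + 1), which lost Mcpt8 and Fcer1a, and 1 with the lacrimal score, which lost Fcer1a and Itga2b, and 2 to 3 when 1 library was left out. The linear model on log2(FPKM + 1) understates changes of low genes (log2 fold change of Mcpt8 1.63 beside 6.07, isotype against PBS); the other causes were not tested. No result reversed. Over all genes, 3235, 2826 and 707 were called in the 3 comparisons, 2115, 1859 and 312 with the replicate block, 2571, 675 and 532 with 2 groups only, 2214, 1749 and 327 without a filter, 4273, 4023 and 1966 in DESeq2, 2990, 2416 and 430 in the linear model on log2(FPKM + 1), and 4590, 542 and 87 with the lacrimal score. Replicate numbers did not pair the libraries: deviations of libraries with the same number correlated from -0.385 to 0.454, and not every library correlated best with its own number. With the replicate block the same 6, 1 and 3 genes were called, and Ms4a2 in isotype against PBS was closest to the threshold (log2 fold change 1.24, adjusted p = 0.0499). Depth limits Prss34 and the PBS values of Mcpt8.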
